A study of Mus musculus with 64 samples.

Results

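The TNF superfamily genes described here are 5 ligands, Tnf, Ltb, Tnfsf10, Tnfsf15 and Tnfsf13b, and 4 receptors, Fas, Tnfrsf1a, Tnfrsf1b and Tnfrsf9. They were listed by gene symbol with no threshold on a measured value, although earlier results of these data were known when the list was made. They are 9 of the 55487 genes counted, and all 9 were among the 14537 genes that had enough counts to be tested. Expression was measured by mRNA sequencing in bone marrow-derived macrophages (BMMs) of wild-type (Ahr+/+) mice and of mice lacking the aryl hydrocarbon receptor (Ahr-/-), a transcription factor switched on by ligands. BMMs were grown from marrow of 4 young adult C57BL/6 mice per genotype in medium conditioned by L929 fibroblasts. They were kept for 6 h with 1 µM benzo[a]pyrene (BaP), 10 µM indole-3-carbinol (I3C) or the solvent DMSO at 0.01%. For activation, 10000000/ml heat-killed Salmonella Enteritidis (hk S.E.) were added for another 3 h or 20 h, and further DMSO cultures were left unactivated for the same times. The 64 libraries form 16 groups of 4: for each genotype and time, an unactivated DMSO group and activated groups after DMSO, BaP or I3C. The Ahr-/- mice were backcrossed to the wild-type strain. No unactivated culture received BaP or I3C. All positions are on GRCm38, with Tnf (ENSMUSG00000024401.14) at chr17:35199381-35202007 on the minus strand and Ltb (ENSMUSG00000024399.5) beside it at chr17:35194439-35196320. Tnfsf10 (ENSMUSG00000039304.11) lies at chr3:27317028-27342427, Tnfsf15 (ENSMUSG00000050395.8) at chr4:63727084-63745113 and Tnfsf13b (ENSMUSG00000031497.9) at chr8:10006467-10039072. Fas (ENSMUSG00000024778.13) lies at chr19:34290666-34327772, Tnfrsf1a (ENSMUSG00000030341.17) at chr6:125349362-125362484, Tnfrsf1b (ENSMUSG00000028599.10) at chr4:145213463-145246870 and Tnfrsf9 (ENSMUSG00000028965.13) at chr4:150914562-150946102.

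TNF superfamily ligands are trimeric cytokines, most of them made as membrane proteins that can be cleaved from the cell surface, and their receptors signal when trimers bring them together. Receptors with a death domain, such as Fas and TNF receptor 1 (Tnfrsf1a), can start caspase-driven cell death or the NF-kB and MAP kinase pathways, whereas receptors without it, such as TNF receptor 2 (Tnfrsf1b) and 4-1BB (Tnfrsf9), work through TRAF adaptors. Macrophages are a major source of TNF after contact with bacterial products, which they sense through Toll-like receptors.

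All 9 genes had an entry in the RefSeq table of promoter windows on GRCm38.p6. The sequence directly upstream of the transcription start is shown for 4 of them, 3 genes that rose with activation (Tnf, Fas and Tnfrsf1b) and 1 that did not (Tnfsf13b). The windows end at the RefSeq or GENCODE start that lies further upstream, and these starts differ by 7 bases for Fas. Capitals mark matches to the short motifs searched on both strands. The windows run 5′ to 3′ in the sense of the gene and lie at chr17:35202008-35202257 (minus strand), chr19:34290409-34290658 (plus strand), chr4:145246871-145247120 (minus strand) and chr8:10006217-10006466 (plus strand).
Tnf: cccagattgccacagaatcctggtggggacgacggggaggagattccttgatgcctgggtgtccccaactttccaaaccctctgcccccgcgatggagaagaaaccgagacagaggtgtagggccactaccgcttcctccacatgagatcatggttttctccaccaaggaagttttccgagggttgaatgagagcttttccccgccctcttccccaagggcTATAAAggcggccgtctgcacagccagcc
Fas: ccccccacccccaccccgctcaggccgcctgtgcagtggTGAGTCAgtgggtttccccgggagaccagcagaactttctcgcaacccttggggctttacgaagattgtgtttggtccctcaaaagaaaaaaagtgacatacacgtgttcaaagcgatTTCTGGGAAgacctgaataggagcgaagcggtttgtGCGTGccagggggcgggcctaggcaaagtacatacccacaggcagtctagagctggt
Tnfrsf1b: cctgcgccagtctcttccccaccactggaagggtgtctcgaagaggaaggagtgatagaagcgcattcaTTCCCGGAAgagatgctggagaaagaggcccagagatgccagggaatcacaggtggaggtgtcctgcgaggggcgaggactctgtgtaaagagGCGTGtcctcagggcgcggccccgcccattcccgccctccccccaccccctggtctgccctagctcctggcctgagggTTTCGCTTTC
Tnfsf13b: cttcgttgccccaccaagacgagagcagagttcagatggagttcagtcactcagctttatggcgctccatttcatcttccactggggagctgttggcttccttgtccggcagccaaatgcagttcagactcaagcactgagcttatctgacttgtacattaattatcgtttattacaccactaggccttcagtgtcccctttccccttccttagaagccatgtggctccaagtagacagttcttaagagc

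The Tnf window held a TATA box, TATAAA, 24 to 29 bases upstream of the start. The Fas window held the core of the aryl hydrocarbon response element, GCGTG, 53 to 57 bases upstream, an interferon-gamma activated site (GAS, TTCNNNGAA) at 85 to 93 bases and an AP-1 motif (TGANTCA) at 205 to 211 bases. The Tnfrsf1b window held the same core at 84 to 88 bases, a GAS motif at 173 to 181 bases and an interferon-stimulated element (GAAANNGAAA) on the opposite strand, in the last 10 bases before the start. None of the 4 windows held an exact match to the NF-kB consensus searched, and that of Tnfsf13b held none of the 6 motifs. Shorter windows of Tnfsf15 (196 bases) and Tnfsf10 (201 bases), genes that also rose with activation, were searched but are not shown. Neither of them held any of the 6 motifs. Of RefSeq windows cut to these lengths, 22% and 22.7% held the response element core and 5.61% and 5.74% the NF-kB consensus. The Ltb window, of 182 bases, was not searched. Of 32807 windows of 250 bases in the RefSeq table, 28.1% held the response element core, 12.4% TATAAA, 7.25% the NF-kB consensus, 7.02% a GAS motif, 6.75% AP-1 and 2.97% the interferon element. The motifs are letters in these windows, and binding was not measured.

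The libraries held 12152496 to 50644601 read pairs on genes, apart from 1 unactivated Ahr+/+ library at 20 h (replicate 4) with 233047331. All 8 macrophage markers had a mean of at least 1 CPM (read pairs relative to the scaled library total) in every group, and their sum was 18609 to 35732 CPM per library. The 3 CD3 genes, Ly6g, Mpo, Elane, Ncr1 and Xcr1 had a median of 0 CPM over the libraries. Flt3 and Zbtb46 of dendritic cells had medians of 0.0672 and 0.365 CPM, and Cd79b of B cells 1.12 CPM (highest 5.96). In libraries activated for 20 h after DMSO, summed dendritic cell markers were 0.859 to 1.83 CPM in Ahr+/+ and 0.075 to 0.442 CPM in Ahr-/- BMMs. The summed B cell markers were 0.532 to 0.88 and 0.994 to 1.61 CPM there. The summed neutrophil markers, carried by S100a8 and S100a9, were 12.2 to 28.0 CPM in the unactivated and 63.1 to 184 CPM in the activated libraries at 3 h. The summed T cell markers, carried by Cd4 and Lck, were 0.73 to 1.99 CPM and 3.71 to 9.55 CPM in the same libraries. The summed fibroblast markers were 0.0736 to 7.88 CPM, and among unactivated Ahr-/- libraries at 20 h they ran from 0.557 to 7.88 CPM. The part of other cells in the results below was not tested. In such bulk libraries, fewer cells of a type and less RNA per cell cannot be told apart. Counts on Ahr were present in all Ahr-/- groups, at 6.63 to 24.8 CPM on average, and were higher than in Ahr+/+ BMMs by 0.88 to 1.04 on the log2 scale in the 4 comparisons of DMSO groups, so they do not check the deletion. Ahrr, a target of the receptor, rose after BaP in Ahr+/+ BMMs by 3.36 on the log2 scale at 3 h and 1.73 at 20 h, and after I3C by 2.13 and 1.51, and was not called in Ahr-/- BMMs.

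**Figure D1:**
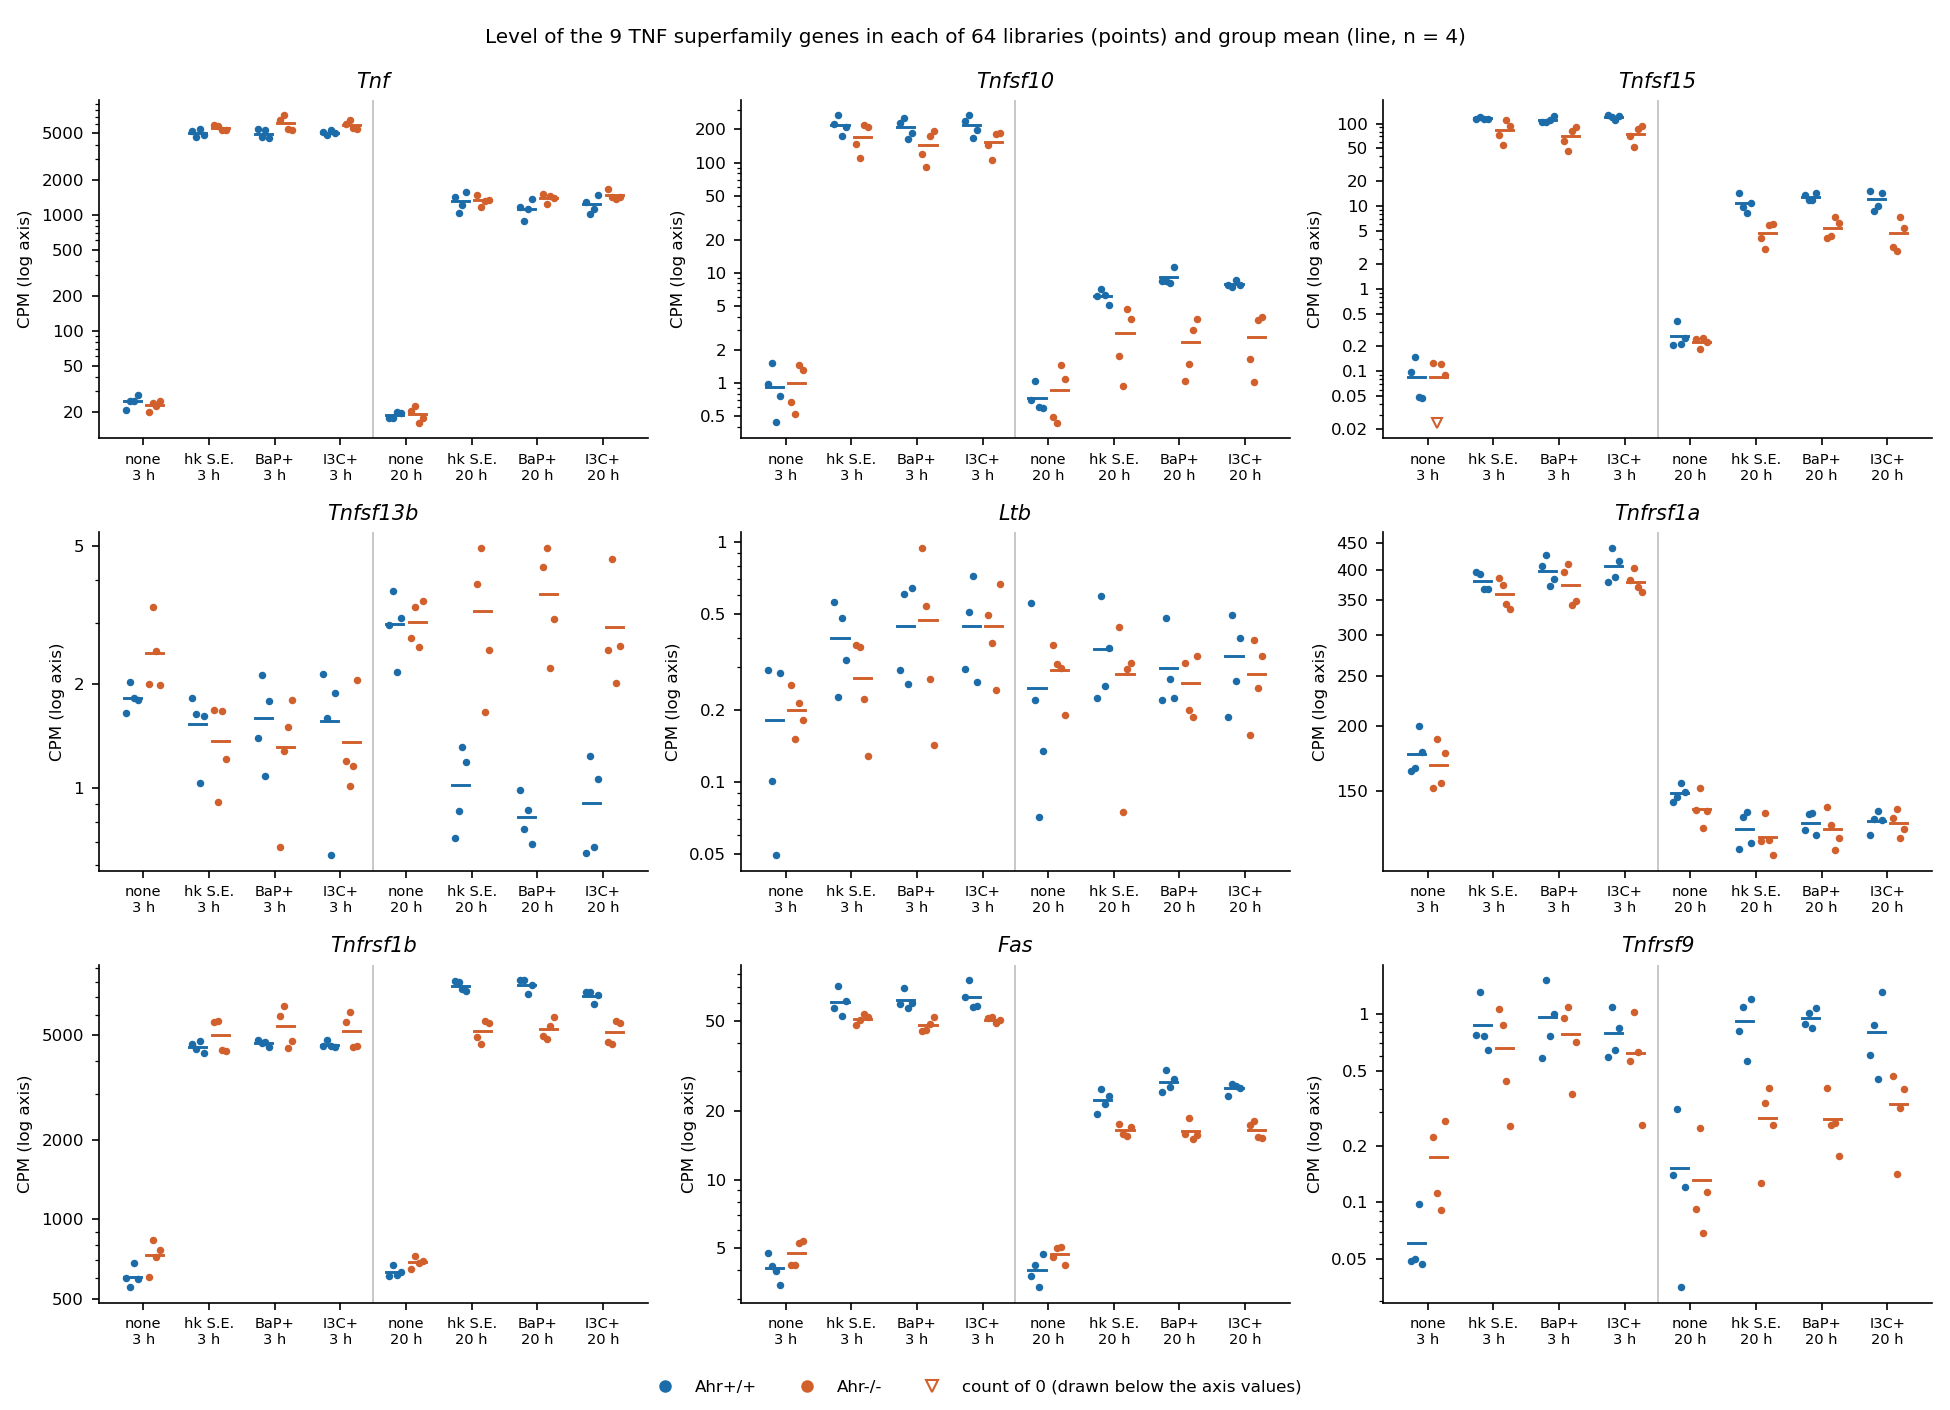
Expression of the 9 genes in each of the 64 libraries (points; CPM on a log axis) with the group mean (line, n = 4), Ahr+/+ in blue and Ahr-/- in orange; "none" is unactivated, BaP+ and I3C+ are activated after that ligand, and an open triangle marks a count of 0. Tnf, Tnfsf10, Tnfsf15 and Fas sit high at 3 h and fall by 20 h, Tnfrsf1b stays high at 20 h, and the activated 20 h groups of Tnfsf13b separate by genotype.

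Levels of different genes were compared as CPM per kilobase of exon. In unactivated Ahr+/+ BMMs at 3 h, the TNF receptors led, with 159 ± 14.3 (SD, n = 4) CPM per kilobase for Tnfrsf1b and 68.4 ± 6.37 for Tnfrsf1a, followed by Tnf with 14.97 ± 1.81. Fas stood at 1.99 ± 0.262, and the other 5 genes lay between 0.0225 (Tnfrsf9) and 0.266 (Tnfsf13b). After 3 h of hk S.E. the order changed: Tnf led with 3079 ± 212 CPM per kilobase, before Tnfrsf1b with 1187 ± 55.1, Tnfrsf1a with 147 ± 5.9, Tnfsf10 with 41.5 ± 7.46, Tnfsf15 with 34.6 ± 1.17 and Fas with 29.2 ± 3.78. At 20 h Tnfrsf1b was ahead of Tnf again in Ahr+/+ BMMs, with 2023 ± 86.3 against 794 ± 144. The same genes held the first 2 ranks in Ahr-/- BMMs, with 1365 ± 128 for Tnfrsf1b against 808 ± 82.6 for Tnf at 20 h.

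Activation with hk S.E. was compared with no activation after DMSO, to ask which of the genes respond to a bacterial stimulus in resting macrophages. At 3 h, 7 of the 9 genes rose and none fell in either genotype (adjusted p below 0.01, edgeR quasi-likelihood test with Benjamini-Hochberg adjustment over all tested genes). Of all tested genes, 24.2% were called higher and 32.3% lower in Ahr+/+ BMMs at 3 h, and 25.5% and 31.8% in Ahr-/- BMMs. At 20 h, 6 genes were higher and 2 lower in Ahr+/+ BMMs, against a background of 29.9% and 28.7%. The count in Ahr-/- BMMs was 5 higher and none lower at 20 h, against 28.3% and 26.0%.

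Tnf encodes the founding ligand of the family. Tnf was at 20.6, 25.0, 24.8 and 27.8 CPM in the unactivated Ahr+/+ libraries at 3 h and at 5262, 4676, 5413 and 4839 CPM in the activated ones. The Ahr-/- libraries were at 20.0, 23.9, 22.5 and 24.9 CPM without and at 5871, 5774, 5331 and 5304 CPM with activation. Every activated library lay far above every unactivated one, and the genotypes overlapped. Tnf rose 206-fold in Ahr+/+ BMMs, a log2 change of 7.68 with an SE of 0.16 (adjusted p = 2.61e-42), and 244-fold in Ahr-/- BMMs, with 7.93 ± 0.16 (adjusted p = 6.78e-43). Log2 changes are given ± SE here and in what follows, and CPM values ± SD. At 20 h Tnf was at 1302 ± 237 CPM in activated Ahr+/+ and 1324 ± 135 CPM in activated Ahr-/- BMMs, against 18.7 ± 1.3 and 19.2 ± 2.88 CPM without activation. The change at 20 h was 6.12 ± 0.15 and 6.11 ± 0.15 on the log2 scale.

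Tnfsf15 encodes TL1A, the ligand of death receptor 3, which costimulates T cells. Its unactivated libraries at 3 h held 2, 6, 1 and 1 read pairs in Ahr+/+ and 4, 0, 4 and 2 in Ahr-/- BMMs. Activation brought it to 113, 122, 115 and 114 CPM in Ahr+/+ and 73.3, 54.7, 111 and 92.5 CPM in Ahr-/- BMMs. The Ahr+/+ values lay within a narrow band above all Ahr-/- values. With so few resting counts the fold is best given as the ratio of summed counts scaled by depth, 1181 (95% interval 642 to 2464) in Ahr+/+ and 940 (511 to 1962) in Ahr-/- BMMs, intervals that cover counting error only. The fitted log2 fold changes were 10.15 ± 0.39 (adjusted p = 5.93e-30) and 9.81 ± 0.39 (adjusted p = 2.21e-29). At 20 h Tnfsf15 was still above the unactivated level, by 5.33 ± 0.32 and 4.33 ± 0.36 on the log2 scale.

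Tnfsf10 encodes TRAIL, a ligand of death receptors and a known interferon target. It was at 0.974, 1.51, 0.444 and 0.759 CPM in unactivated and at 224, 268, 173 and 211 CPM in activated Ahr+/+ libraries at 3 h. The Ahr-/- libraries went from 0.665, 0.526, 1.46 and 1.31 CPM to 146, 110, 220 and 211 CPM. No activated library reached down to the unactivated range, and Ahr-/- replicates 1 and 2 were below replicates 3 and 4 in both states. The change was 7.78 ± 0.43 (adjusted p = 3.6e-23) in Ahr+/+ and 7.43 ± 0.42 (adjusted p = 1.18e-22) in Ahr-/- BMMs. By 20 h the difference from unactivated BMMs had narrowed to 3.14 ± 0.40 in Ahr+/+ BMMs. In Ahr-/- BMMs it was 1.58 ± 0.41 (adjusted p = 0.000679), with overlapping groups, and its adjusted p was 0.0329 when only the groups compared entered the fit and 0.015 without Ahr-/- replicates 3 and 4.

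Tnfsf13b encodes BAFF, a survival factor for B cells that myeloid cells make. It did not pass the test at 3 h: its levels were 1.83 ± 0.155 CPM without and 1.53 ± 0.341 CPM with activation in Ahr+/+ BMMs, and 2.46 ± 0.639 and 1.37 ± 0.375 CPM in Ahr-/- BMMs (log2 fold change -0.84, adjusted p = 0.014). Scaled by total counts alone, which moved the median of all genes to -0.78 and -0.75 at 3 h, Tnfsf13b was called lower in both genotypes (-0.94 and -1.51). At 20 h unactivated Ahr+/+ libraries were at 2.96, 3.71, 2.17 and 3.11 CPM and activated ones at 0.719, 0.859, 1.32 and 1.19 CPM. Tnfsf13b thus fell with activation in Ahr+/+ BMMs, with every activated library below every unactivated one (log2 fold change -1.52 ± 0.29, adjusted p = 9.15e-06). The Ahr-/- libraries were at 2.72, 3.34, 2.56 and 3.46 CPM without and at 3.89, 4.95, 1.66 and 2.50 CPM with activation, which overlapped (0.10 ± 0.27, adjusted p = 0.761).

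Ltb, which encodes lymphotoxin beta of the membrane-bound lymphotoxin complex of lymphocytes, was close to the detection limit. It lay between 0.0493 and 0.95 CPM over the 64 libraries, with a median of 0.293, and passed no comparison. Its largest activation difference, in Ahr+/+ BMMs at 3 h, was 1.17 on the log2 scale with an interval from 0.03 to 2.31 (adjusted p = 0.067).

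Among the receptors, Fas, the death receptor of Fas ligand, was at 4.77, 4.17, 3.99 and 3.46 CPM in unactivated and at 56.7, 70.6, 52.5 and 61.0 CPM in activated Ahr+/+ libraries at 3 h. The Ahr-/- libraries went from 4.24, 4.21, 5.26 and 5.38 CPM to 47.8, 50.5, 53.4 and 52.0 CPM. Activated and unactivated libraries did not overlap, and the activated genotypes did. Fas rose by 3.88 ± 0.11 (adjusted p = 2.15e-35) in Ahr+/+ and 3.42 ± 0.11 (adjusted p = 1.61e-33) in Ahr-/- BMMs on the log2 scale, or 14.7-fold and 10.7-fold. At 20 h the rise was 2.45 ± 0.11 and 1.82 ± 0.11.

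The paired TNF receptors behaved differently. Tnfrsf1b was at 598, 552, 683 and 595 CPM in unactivated and 4659, 4429, 4754 and 4293 CPM in activated Ahr+/+ libraries at 3 h. It was 7.47-fold higher with activation in Ahr+/+ and 6.86-fold higher in Ahr-/- BMMs at 3 h, and 12.2-fold and 7.57-fold higher at 20 h (adjusted p between 2.23e-34 and 3.99e-30). Tnfrsf1a was at 164, 166, 200 and 178 CPM in unactivated and 396, 392, 368 and 367 CPM in activated Ahr+/+ libraries at 3 h. This receptor rose 2.15-fold in Ahr+/+ (adjusted p = 3.85e-19) and 2.13-fold in Ahr-/- BMMs (adjusted p = 5.64e-19). At 20 h Tnfrsf1a was slightly below the unactivated level in Ahr+/+ BMMs, 127 ± 10.4 against 149 ± 5.34 CPM (log2 fold change -0.23, adjusted p = 0.00582). That call was lost in fits without 1 of 4 libraries (Ahr+/+ activated replicate 1 or 4, or unactivated replicate 3 or 4 at 20 h), with adjusted p between 0.0129 and 0.034. It was also lost with no filter on low counts (adjusted p = 0.0211). In Ahr-/- BMMs the difference was -0.18 (adjusted p = 0.0343) and was not called by the edgeR fit, but was called with RLE factors (adjusted p = 0.00798), DESeq2 (0.00486) and limma on variance-stabilised values (0.00772). It was not called in a fit of the groups compared (adjusted p = 0.065).

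Tnfrsf9, 4-1BB, is best known as a costimulatory receptor of activated T cells. It held 1, 2, 2 and 1 read pairs in unactivated and 11, 23, 11 and 10 in activated Ahr+/+ libraries at 3 h. The ratio of summed counts scaled by depth was 15.1 with a lower 95% bound of 6.51. The fitted change was 3.80 ± 0.57 (adjusted p = 4.53e-08) in Ahr+/+ and 1.93 ± 0.47 (adjusted p = 0.000326) in Ahr-/- BMMs at 3 h, where 1 activated library lay within the unactivated range. At 20 h it was 2.63 ± 0.42 in Ahr+/+ (adjusted p = 1.76e-07) and 1.25 ± 0.51 in Ahr-/- BMMs (adjusted p = 0.0288, not called). The call in Ahr-/- BMMs at 3 h was lost without Ahr-/- replicates 1 and 2 (1.10, adjusted p = 0.175).

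**Figure D2:**
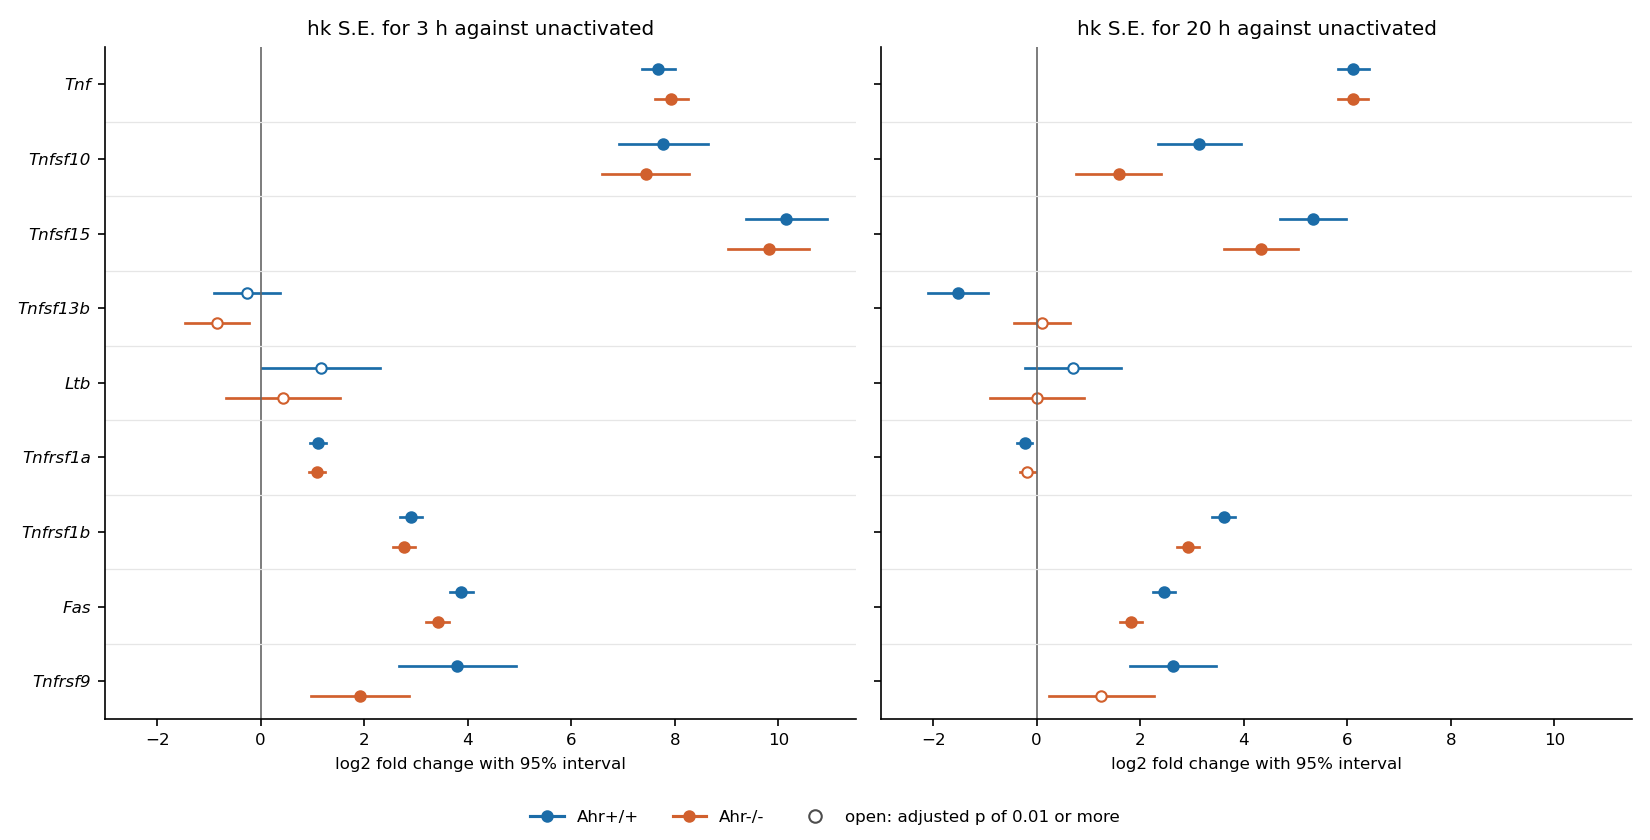
Change with activation (log2 fold change against unactivated BMMs, with its 95% interval) of the 9 genes at 3 h and 20 h in both genotypes; filled symbols mark an adjusted p below 0.01. Tnfsf15 had the highest estimate at 3 h (10.15 in Ahr+/+) and Tnf at 20 h (6.12), while Tnfsf13b was below 0 in Ahr+/+ BMMs at 20 h (-1.52).

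The times were compared within activated BMMs, to separate early from lasting expression. Between 3 h and 20 h, 5 genes fell and 1 rose in each genotype, where 26.4% of all tested genes fell and 33.0% rose in Ahr+/+ BMMs and 24.3% and 31.7% in Ahr-/- BMMs. Tnfsf10 fell by 5.15 ± 0.35 on the log2 scale in Ahr+/+ BMMs, from 219 ± 39.3 to 6.17 ± 0.805 CPM, and by 5.91 ± 0.37 in Ahr-/- BMMs, from 172 ± 52.8 to 2.81 ± 1.75 CPM. Tnfsf15 fell by 3.42 ± 0.23 and 4.10 ± 0.24, and Tnf by 1.95 ± 0.12 and 2.07 ± 0.12. Of the receptors, Fas fell by 1.43 ± 0.10 and 1.62 ± 0.10, and Tnfrsf1a by 1.59 ± 0.08 and 1.55 ± 0.08. The adjusted p of these 10 differences lay between 2.09e-25 and 6.92e-19, and the 3 h and 20 h libraries overlapped for none of these 5 genes in either genotype. Libraries did not overlap for 66.7% of all tested genes in Ahr+/+ and 54.3% in Ahr-/- BMMs. Tnfrsf9 in Ahr-/- BMMs went from 0.656 ± 0.372 to 0.282 ± 0.12 CPM, with overlapping groups, and was not called (-1.24, adjusted p = 0.0101). It was called lower with RLE factors (adjusted p = 0.00594), DESeq2 (0.00418) and the replicate block (0.00612).

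The 1 gene that rose was not the same in the genotypes. Tnfrsf1b was higher at 20 h in Ahr+/+ BMMs, 7725 ± 330 against 4534 ± 211 CPM (0.77 ± 0.10, adjusted p = 1.34e-09), whereas in Ahr-/- BMMs it was at 5210 ± 490 and 5013 ± 716 CPM (0.06 ± 0.10, adjusted p = 0.638). Without Ahr-/- replicates 1 and 2 it was called there too, at 0.36, and with scaling by total counts at 0.42. Tnfsf13b was higher at 20 h in Ahr-/- BMMs (1.24 ± 0.30, adjusted p = 0.000322), with overlapping groups. This call was lost without replicates 1 and 2 (0.53, adjusted p = 0.176) and in a fit of the groups compared (1.17, adjusted p = 0.0166). Whether the change between the times itself differed between genotypes was not tested. In activated Ahr-/- BMMs after DMSO, all 4 libraries at 3 h carry library identifiers of a single number series. All 4 at 20 h carry those of a different series, so time and whatever the series stands for cannot be told apart there. This holds for the falls above as well. In Ahr+/+ BMMs, the 20 h libraries share their series with 2 of the 4 libraries at 3 h.

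Without activation, none of the 9 genes passed the test between 3 h and 20 h in Ahr+/+ BMMs, where 6.07% of all tested genes did, although 4 had an unadjusted p below 0.05 (Tnf, Tnfsf15, Tnfsf13b and Tnfrsf1a). Such a p was reached by 3524 of the 14537 tested genes. In Ahr-/- BMMs Tnfrsf1a fell by 0.28 ± 0.07 (adjusted p = 0.00703), where 6.98% of tested genes were called. No other gene of the 9 was called there, and this call was lost in 5 of the fits without 1 library (adjusted p from 0.0181 to 0.0543). It was also lost with no filter on low counts (adjusted p = 0.0446) and with the identifier series as a covariate (0.217). The same held in a fit of the groups compared (0.148) and without Ahr-/- replicates 3 and 4 (0.114). In Ahr+/+ BMMs Tnfrsf1a changed by -0.25 (adjusted p = 0.0174), which was called with DESeq2 (0.00643) and with the replicate block (0.00123). The difference of the activation changes at 20 h and 3 h was also tested. It was called for 6 genes in Ahr+/+ BMMs, where 47.8% of all tested genes were, and for 5 in Ahr-/- BMMs, where 44.7% were. Tnf, Tnfsf10, Tnfsf15, Fas and Tnfrsf1a had smaller changes at 20 h in both genotypes, with differences between -5.85 and -1.27 on the log2 scale, and Tnfrsf1b a larger one in Ahr+/+ BMMs (0.71 ± 0.14, adjusted p = 1.86e-05). Tnfsf13b was not called, at -1.26 ± 0.43 (adjusted p = 0.0111) in Ahr+/+ and 0.95 ± 0.41 (0.0472) in Ahr-/- BMMs. In Ahr+/+ BMMs it was called with RLE factors (0.00758), DESeq2 (0.0049), limma (0.00966), the replicate block (0.00739) and the groups compared (0.00134). It was not called there with total counts (0.0515), no filter (0.0174) or the series covariate (0.0353).

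Genotypes were compared in DMSO-treated BMMs, to ask whether the receptor affects these genes without an added ligand. No gene of the 9 was called in unactivated BMMs at 3 h or 20 h or in activated BMMs at 3 h, where 1.21%, 0.702% and 2.83% of all tested genes were. An unadjusted p below 0.05 was reached by Tnfrsf1b and Tnfrsf9 without activation at 3 h and by Fas and Tnfsf15 with activation at 3 h. Of the 14537 tested genes, 1452 and 2778 reached it in these comparisons. In activated BMMs at 20 h, 4 genes were lower and 1 was higher in Ahr-/- BMMs, against 7.39% and 5.06% of all tested genes. That background is 1075 genes lower and 736 higher, and with scaling by total counts alone it was 742 lower and 1206 higher.

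Tnfsf15 stood at 14.4, 9.82, 8.27 and 10.9 CPM in the activated Ahr+/+ and at 4.08, 3.00, 5.96 and 6.03 CPM in the activated Ahr-/- libraries at 20 h. All Ahr-/- values lay below all Ahr+/+ values. The difference was -1.16 ± 0.23 on the log2 scale (adjusted p = 0.000141). Tnfrsf9, at 0.809, 1.08, 0.566 and 1.19 against 0.127, 0.337, 0.405 and 0.258 CPM, was also lower (-1.72 ± 0.40, adjusted p = 0.00102). These are 18, 29, 18 and 56 against 4, 9, 11 and 14 read pairs.

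Tnfrsf1b was at 8047, 7959, 7530 and 7365 CPM in Ahr+/+ and at 4948, 4653, 5671 and 5568 CPM in Ahr-/- libraries. Fas was at 19.5, 25.1, 21.4 and 23.3 CPM and at 17.6, 15.8, 15.6 and 17.0 CPM. Both receptors were lower in Ahr-/- BMMs without overlap, Tnfrsf1b by 1.48-fold (-0.57 ± 0.10, adjusted p = 2.07e-05) and Fas by 1.35-fold (-0.44 ± 0.10, adjusted p = 0.000733). Over all 12 activated libraries per genotype at 20 h, those after BaP or I3C included, Fas ran from 19.5 to 30.4 CPM (median 25.2) in Ahr+/+ and from 15.1 to 18.6 CPM (median 15.8) in Ahr-/- BMMs. Tnfrsf1b ran from 6576 to 8131 CPM (median 7447) and from 4630 to 5852 CPM (median 5189).

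Tnfsf13b went the other way, with 0.719, 0.859, 1.32 and 1.19 CPM in Ahr+/+ and 3.89, 4.95, 1.66 and 2.50 CPM in Ahr-/- libraries. It was 3.1-fold higher in Ahr-/- BMMs (1.63 ± 0.30, adjusted p = 3.58e-05), and all Ahr-/- values lay above all Ahr+/+ values. Ahr-/- replicates 1 and 2 were above replicates 3 and 4. Tnfsf10, at 6.17 ± 0.805 and 2.81 ± 1.75 CPM, did not overlap between the genotypes but was not called (-1.10 ± 0.34, adjusted p = 0.0165). It was called lower with limma on variance-stabilised values (adjusted p = 0.007) and without Ahr-/- activated replicate 3 (-1.40, adjusted p = 0.00442). Of all tested genes, 20.4% did not overlap in this comparison. Tnf, with a difference of 0.02 (95% interval -0.21 to 0.26), and Tnfrsf1a, with -0.05 (-0.20 to 0.10), were not called.

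**Figure D3:**
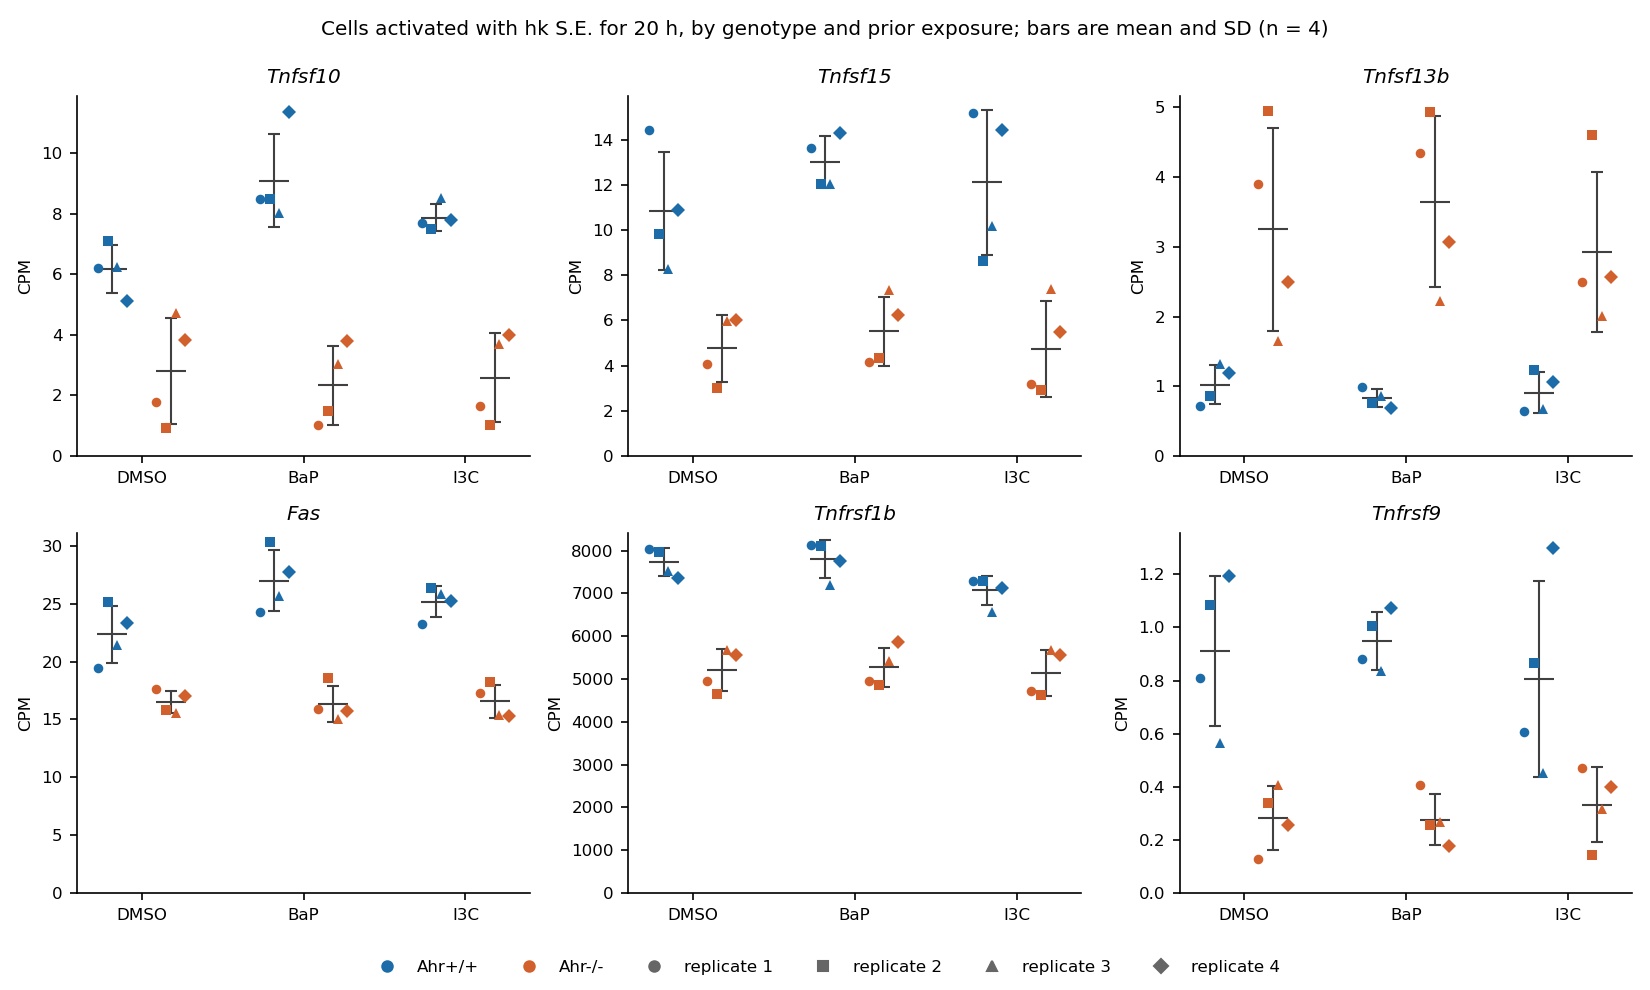
CPM of 6 genes in activated BMMs at 20 h after DMSO, BaP or I3C (linear axes from 0), with each library by replicate number and the mean ± SD (n = 4), Ahr+/+ beside Ahr-/-. Tnfsf15, Fas, Tnfrsf1b and Tnfsf10 were lower and Tnfsf13b was higher in every Ahr-/- group mean, and Ahr-/- replicates 1 and 2 of Tnfsf10 lay below replicates 3 and 4.

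These genotype differences move with other properties of the libraries. All 12 activated Ahr-/- libraries at 20 h carry library identifiers of a single number series, and all 12 activated Ahr+/+ ones carry those of a different series, so that the genotype and whatever the series stands for cannot be told apart within this comparison. With the series as a covariate, estimated from the other groups, Tnfsf13b was still called. Fas (-0.25, adjusted p = 0.285), Tnfrsf1b (-0.39, adjusted p = 0.0523), Tnfrsf9 (-2.01, adjusted p = 0.0545) and Tnfsf15 (-1.35, adjusted p = 0.302) were not. In a fit of the groups compared alone, Tnfrsf1b was the 1 gene called, and the adjusted p of the other 4 lay between 0.0131 and 0.0258.

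The change with activation at 20 h differed between genotypes for 3 genes, where 4.41% of all tested genes did. Activation changed Tnfsf13b more upward in Ahr-/- BMMs, by 1.62 ± 0.40 on the log2 scale (adjusted p = 0.00491), Fas less upward (-0.64 ± 0.15, adjusted p = 0.00234) and Tnfrsf1b less upward (-0.69 ± 0.14, adjusted p = 0.000583). The call of Tnfsf13b was lost in 7 of the fits without 1 library, with values from 1.36 (without Ahr-/- activated replicate 2) to 1.60 and adjusted p from 0.0104 to 0.0287. It was also lost without Ahr-/- replicates 1 and 2 (1.01, adjusted p = 0.0913), with the identifier series as a covariate (1.52, adjusted p = 0.0185), in a fit of the groups compared (adjusted p = 0.0239) and with limma on variance-stabilised values (adjusted p = 0.0212). That of Fas was lost without either pair of Ahr-/- replicates (adjusted p = 0.0261 and 0.0248). Tnfsf10 differed by -1.56 ± 0.58 (adjusted p = 0.0833), but was called with the replicate number as a block (-1.53 ± 0.32, adjusted p = 0.000462). At 3 h none of the 9 was called, where 0.0138% of tested genes were. Fas and Tnfrsf9 had an unadjusted p below 0.05, as did 867 of all 14537 tested genes.

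The Ahr-/- libraries split by replicate number. Tnfsf10 was lower in both of replicates 1 and 2 than in both of 3 and 4 in 8 of 8 Ahr-/- groups, with the mean of 3 and 4 at 1.47 to 3.15 times that of 1 and 2. The same held for Tnfsf15 in 6 of 8 groups, and Tnfrsf1a was higher in replicates 1 and 2 in 6 of 8. Of all tested genes, 1.91% were lower in replicates 1 and 2 in all 8 Ahr-/- groups and 18.3% in at least 6, against 0.138% and 2.12% in Ahr+/+ BMMs, and 17.0% were higher in at least 6 Ahr-/- groups. Without replicates 3 and 4, 8 genotype calls were made in place of 5, with Tnfsf10 lower in Ahr-/- BMMs at 3 h (-0.78, adjusted p = 0.00566) and 20 h (-2.14, adjusted p = 7.5e-07) and Tnfsf15 at 3 h (-0.86, adjusted p = 0.000494). Without replicates 1 and 2, Tnfrsf1b was called higher in unactivated Ahr-/- than Ahr+/+ BMMs at 3 h (0.29, adjusted p = 0.00634). What sets these replicates apart was not tested.

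BaP and I3C were compared with DMSO in activated BMMs, the comparison the ligands were added for. Of the 72 tests of the 9 genes, 0 were called by edgeR, and 0 by DESeq2 or limma. The background was low, at 0.0482% (3 h) and 0.234% (20 h) of tested genes after BaP and 0.131% and 0.509% after I3C in Ahr+/+ BMMs, and 0.0275%, 0.0138%, 0.0206% and 0.206% in Ahr-/- BMMs. At the same cutoff, the study's own DESeq2 analysis reported many more AhR-dependent genes after BaP at 20 h than the edgeR fit called here. The study counted genes called in only 1 of the genotypes, which is not the same count, and why the numbers differ was not tested. At an unadjusted p below 0.05 there was 1 of the 72 tests, Fas after BaP in Ahr+/+ BMMs at 20 h. Of the 14537 tested genes, 1510 had such a p in that comparison and 258 to 862 in each of the others. Fas was at 24.3, 30.4, 25.7 and 27.7 CPM after BaP and at 19.5, 25.1, 21.4 and 23.3 CPM after DMSO, with overlapping groups. The difference was 0.27 ± 0.10 on the log2 scale (95% interval 0.08 to 0.47, adjusted p = 0.222).

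Over the 8 ligand tests of a gene, the log2 differences ran from -0.21 to 0.15 for Tnf, 0.04 to 0.09 for Tnfrsf1a, -0.13 to 0.11 for Tnfrsf1b and -0.10 to 0.27 for Fas. The 95% intervals of these 4 genes reached no further than -0.44 and 0.47. The intervals were wider for the genes with fewer counts, reaching from -0.97 to 1.21 for Tnfsf10, -0.66 to 0.71 for Tnfsf15, -0.98 to 0.72 for Tnfsf13b, -0.97 to 1.15 for Tnfrsf9 and -1.23 to 1.77 for Ltb. In Ahr+/+ BMMs at 20 h, Tnfsf10 was at 9.08 ± 1.54 CPM after BaP, 7.87 ± 0.454 after I3C and 6.17 ± 0.805 after DMSO (0.57 ± 0.32 for BaP against DMSO, adjusted p = 0.561). Tnfrsf1b was at 7801 ± 435 CPM after BaP, 7073 ± 341 after I3C and 7725 ± 330 after DMSO in the same BMMs, and was not called.

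**Figure D4:**
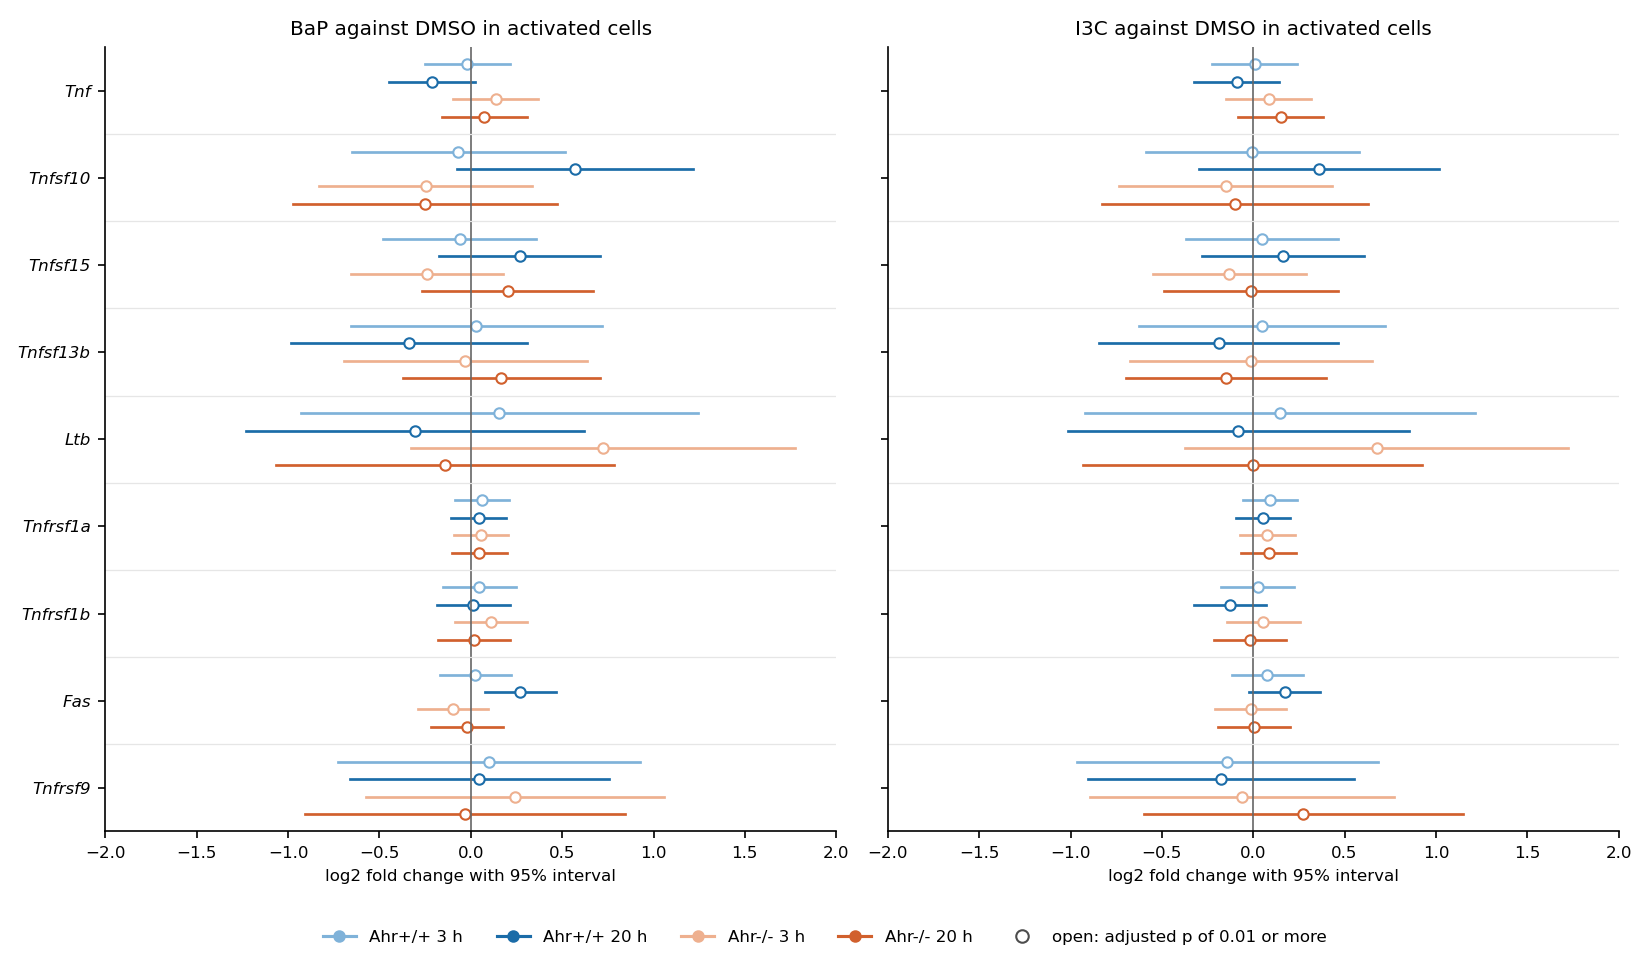
Difference between BMMs activated after BaP or I3C and after DMSO (log2 fold change with its 95% interval) for the 9 genes, by genotype and time. All symbols are open, as no adjusted p was below 0.01, and the estimates lie between -0.34 and 0.72.

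The ligands were used at different concentrations, 1 µM BaP and 10 µM I3C, and their direct comparison covers that difference too. None of its 36 tests was called (of all tested genes 0.11% at 3 h and 0.282% at 20 h were in Ahr+/+ and 0.0206% and 0.186% in Ahr-/- BMMs), with log2 differences between -0.30 and 0.32 and 0 tests at an unadjusted p below 0.05. Over all 14537 tested genes, 453 to 830 had such a p in each comparison. Among the 36 tests of whether a ligand's change differed between genotypes 0 were called as well (0.0138% of tested genes for BaP at 3 h and 0.0% in the other 3 comparisons), and 1 had an unadjusted p below 0.05, for Fas. That was for BaP at 20 h, where 679 of the 14537 tested genes had such a p.

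Other genes of the pathway were followed through 4 lists: 13 other ligands (7 tested), 24 other receptors (14 tested), 24 adaptors and parts of the receptor signalling complex (all tested) and 8 genes of ligand shedding and mRNA decay (all tested). As background, activation at 3 h raised 24.2% and lowered 32.3% of all tested genes in Ahr+/+ BMMs, and 25.5% and 31.8% in Ahr-/- BMMs. The shares at 20 h were 29.9% and 28.7% in Ahr+/+ and 28.3% and 26.0% in Ahr-/- BMMs. With activation at 3 h in Ahr+/+ BMMs, 4 of the other ligands rose and 2 fell, with a median log2 change of 4.36 where that of all tested genes was -0.10. Tnfsf9, the ligand of 4-1BB, rose by 4.42 ± 0.15 from 4.34 ± 0.302 to 93.6 ± 8.03 CPM, and Tnfsf4 (OX40 ligand) by 7.08 ± 0.44, Lta (lymphotoxin alpha) by 5.62 ± 0.47 and Tnfsf8 (CD30 ligand) by 4.36 ± 0.28. In Ahr-/- BMMs, again 4 rose and 2 fell (median 3.77 against -0.08). At 20 h Lta was above the unactivated level by 5.92 ± 0.33 in Ahr+/+ and 6.56 ± 0.40 in Ahr-/- BMMs, while Tnfsf14 (LIGHT) fell, with log2 changes of -5.58 ± 0.45 and -5.27 ± 0.43. In all, 4 rose and 3 fell at 20 h in Ahr+/+ BMMs, and 3 each in Ahr-/- BMMs.

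The other receptors moved both ways, with 6 higher and 6 lower in Ahr+/+ BMMs at 3 h, 5 and 6 in Ahr-/- BMMs, 4 and 4 at 20 h in Ahr+/+ and 6 and 5 in Ahr-/- BMMs. Cd40, the receptor through which T cells license macrophages, rose from 2.47 ± 0.406 to 1008 ± 31.1 CPM at 3 h in Ahr+/+ BMMs (8.69 ± 0.22) and by 8.38 ± 0.21 in Ahr-/- BMMs. Tnfrsf8 (CD30) rose by 2.77 ± 0.17 and 2.76 ± 0.16, Tnfrsf21 (death receptor 6) fell by 2.27 ± 0.12 and 2.12 ± 0.12, and Relt fell by 2.93 ± 0.39 and 2.80 ± 0.37. The median of this list was at -0.10 in both genotypes at 3 h, close to that of all genes.

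Of the 24 adaptors, 14 rose and 1 fell at 3 h in each genotype. Their median was 0.89, against -0.10 in Ahr+/+ and -0.08 in Ahr-/- BMMs for all tested genes. At 20 h 17 adaptors rose and 1 fell in Ahr+/+ and 14 rose and 2 fell in Ahr-/- BMMs. Tnfaip3 (A20), a deubiquitinase that limits NF-kB signalling, rose from 48.0 ± 3.64 to 1873 ± 116 CPM at 3 h in Ahr+/+ BMMs. Traf1 rose by 5.02 ± 0.11, Cflar (c-FLIP), an inhibitor of caspase-8 activation, by 4.41 ± 0.21 and Tank by 3.34 ± 0.18. Among the 8 genes of shedding and decay, 3 rose and 2 fell at 3 h in Ahr+/+ and 4 and 2 in Ahr-/- BMMs, and 2 rose and 4 fell at 20 h in each. In Ahr+/+ BMMs, 24.2% of all tested genes rose and 32.3% fell at 3 h, and 29.9% and 28.7% at 20 h. Rhbdf2 (iRhom2), which brings the sheddase ADAM17 to the cell surface, rose by 3.26 ± 0.12 at 3 h. Zfp36 (tristetraprolin), a protein that binds AU-rich elements and speeds the decay of Tnf mRNA, rose from 249 ± 37.9 to 1605 ± 133 CPM at 3 h in Ahr+/+ BMMs and fell by 3.46 ± 0.17 between 3 h and 20 h of activation. Its relatives Zfp36l1 and Zfp36l2 fell at 3 h, by 3.64 ± 0.18 and 3.65 ± 0.14.

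Between 3 h and 20 h of activation, 1 of the other ligands rose and 6 fell, 6 other receptors rose and 6 fell, 5 adaptors rose and 14 fell, and 2 genes of shedding and decay rose and 4 fell in Ahr+/+ BMMs, where 33.0% of all tested genes rose and 26.4% fell. The counts in Ahr-/- BMMs were 0 and 6, 5 and 6, 2 and 14, and 1 and 4, where 31.7% of all tested genes rose and 24.3% fell. In activated BMMs at 20 h, 10 genes of the 4 lists were lower and none was higher in Ahr-/- than in Ahr+/+ BMMs, where 7.39% of all tested genes were lower and 5.06% higher, a balance that turned to 742 genes lower and 1206 higher with scaling by total counts. The 10 genes included Tnfsf4 (-2.17 ± 0.53), Tnfsf8 (-1.12 ± 0.26), Zfp36 (-0.92 ± 0.16), Tnfrsf8 (-0.67 ± 0.14), Traf2 (-0.64 ± 0.08), Tnfrsf21 (-0.51 ± 0.11) and Rnf31, a subunit of the linear ubiquitin ligase complex (-0.50 ± 0.10). The confounding with the identifier series applies to these as well. Tnfrsf8 ran from 12.5 to 16.4 CPM in Ahr+/+ and from 8.77 to 9.79 CPM in Ahr-/- libraries, without overlap.

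The genes whose pattern was most like that of each member were listed by Pearson correlation over the 16 group means of log2 CPM, as a description of means that share libraries and the strong activation contrast. For Tnf they were Ehd1 (0.999), Rab11fip1 (0.998) and Xkr8 (0.997), for Tnfsf10 Nsd3 (0.999), Bfar and Stat3, and for Tnfsf15 Nod1 (0.998), Il27 and Plagl2. For Fas they were Nmi (0.998), Casp4 and Trim30c, for Tnfrsf1a Swap70 (0.995), Atp2b4 and Arid2, and for Tnfrsf1b Tnfrsf8 (0.997), H2-T10 and Ppp1r15a. The low genes had weaker partners, with Parp11 (0.973), Clec2d and Gm14085 for Tnfrsf9, Pygl (0.928), Tmem237 and Fkbp4 for Tnfsf13b and Prdx2 (0.911), Syf2 and Gm6485 for Ltb. Among the 9 genes themselves, Tnfsf15 and Fas were the most alike pair (0.995 over the 16 means), Tnfrsf1a and Tnfrsf1b correlated at 0.181, and Tnfsf13b was negatively correlated with each of the others, from -0.33 to -0.76.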

How the data were processed

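The members and the pathway lists were chosen with earlier results of these data known. The authors demultiplexed reads with bcl2fastq 2.19.0.316, trimmed adapters, aligned to mm10 with HISAT2 2.1.0 and deposited counts of read pairs per gene and library from HTSeq 0.9.1 (reverse stranded, exons of GENCODE genes). The authors also deposited log2-scale values after variance stabilisation (VST) for 14549 genes, used here for an alternative only. Of all read pairs, 74.9% to 80.8% fell on genes, and rows naming no gene were left out.

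From the counts, 14537 genes passed a filter at a minimum count of 10 (filterByExpr) and were fitted with edgeR 4.0.16 (R 4.3.3): TMM scaling, 16 group means over all 64 libraries, quasi-likelihood tests, Benjamini-Hochberg adjustment over all tested genes per comparison, and the study's cutoff for calls (adjusted p below 0.01). There were 32 comparisons. CPM used TMM-scaled totals, and levels per kilobase the union of exons in GENCODE. Depth ran from 12152496 to 233047331 read pairs, and genes under about 1 CPM are imprecise. Ltb and Tnfrsf9 lay near the filter. Ratios of summed counts have 95% intervals for counting error only.

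The study used 4 mice per genotype. Whether a replicate number marks a mouse is not stated, so p-values measure the spread between these samples. Named were the 9 members, at most 4 called genes per list and comparison by size of change, the 3 genes most correlated with each member, and Ahr and Ahrr. Alternatives were no filter, RLE factors, DESeq2 1.42.0, edgeR on the groups compared, limma 3.58.1 on the VST values, the replicate number as a block, the library identifier series as a covariate, a threshold of 0.05, leaving out each library, and the longest transcript as length. Scaling by total counts and leaving out Ahr-/- replicates 1 and 2 or 3 and 4 were chosen after seeing the data.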

Additional observations from a re-analysis of the deposited data

Results flagged for a closer look

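Of 144 groups of 4 libraries tested for a value far from the others, 3 had one, where chance gives about 1 in 20. They were Tnfsf10 at 11.4 CPM in replicate 4 of Ahr+/+ BMMs activated for 20 h after BaP, Tnfrsf1b at 4807 CPM in replicate 2 of Ahr+/+ BMMs activated for 3 h after I3C, and Tnfrsf9 at 0.0986 CPM in replicate 3 of unactivated Ahr+/+ BMMs at 3 h, a count of 2.

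The change with activation at 20 h differed between the genotypes by a test of the difference for Tnfsf13b (1.62 on the log2 scale, Ahr-/- minus Ahr+/+), Fas (-0.64) and Tnfrsf1b (-0.69). The change with activation differed between 20 h and 3 h in Ahr+/+ BMMs for Tnf (-1.57), Tnfsf10 (-4.64), Tnfsf15 (-4.82), Fas (-1.42), Tnfrsf1a (-1.33) and Tnfrsf1b (0.71). In Ahr-/- BMMs it differed for Tnf (-1.82), Tnfsf10 (-5.85), Tnfsf15 (-5.48), Fas (-1.60) and Tnfrsf1a (-1.27).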

How the results depend on the processing

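Genotype calls of the 9 genes numbered 5, but 1 in edgeR fits of the groups compared, 1 with the identifier series as a covariate and 8 without Ahr-/- replicates 3 and 4. Calls of a genotype difference in activation numbered 3, but 1 in fits of the groups compared and 1 without Ahr-/- replicates 1 and 2. The cause was not tested. Leaving out each library gave 26 to 28 activation calls (27 with all), 12 to 14 time calls (13), 5 to 6 genotype calls, 2 to 3 for activation by genotype, 11 to 12 for activation by time (11), and 0 for each ligand family. Tnfrsf1b reversed in the activation change at 20 h minus 3 h in Ahr-/- BMMs, to -0.20 without replicates 3 and 4 (0.14 with all, not called), but was 0.46 (adjusted p = 0.00058) without replicates 1 and 2 and 0.51 (adjusted p = 0.00141) with total counts. Scaling by total counts moved the median of all genes in activation to -0.37 and -0.28 at 20 h. It ended the call of Tnfrsf9 in Ahr-/- BMMs at 3 h (1.27, adjusted p = 0.0129) and added Tnfrsf1a lower in Ahr-/- BMMs at 20 h (-0.48). With it, 1206 genes were higher and 742 lower in activated Ahr-/- than Ahr+/+ BMMs at 20 h, against 736 and 1075 with TMM. The counts were 198 and 295 with the series covariate and 218 and 341 for the groups alone. In their deviations from group means, same-numbered libraries correlated above 0.1 in 104 of 112 Ahr-/- and 54 of 112 Ahr+/+ pairs. Differently numbered libraries did so in 115 of 336 and 7 of 336 pairs. In addition, 25 of 32 and 31 of 32 libraries correlated best with their own number. Same-numbered libraries thus tended to deviate together, which the main fit has no term for. What a number stands for is not stated. The replicate block gave 29 activation, 16 time, 4 activation by genotype and 12 activation by time calls, with 7 calls gained and 0 lost. Gained were the genotype difference in activation of Tnfsf10 at 20 h (-1.53, adjusted p = 0.000462, against 0.0833 without the block) and Tnfrsf1a lower with activation in Ahr-/- BMMs at 20 h (adjusted p = 0.00703), among others. The longest transcript in place of the exon union moved 49 of 144 levels per kilobase. Tnfrsf9, Ltb and resting Tnfsf15 are limited by depth.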
